A study of Mus musculus with 23 samples.

Results

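The colon ion and water transport genes examined here are 10 genes, Slc26a3, Slc26a2, Slc9a3, Scnn1a, Car1, Car2, Car4, Aqp8, Cftr and Slc12a2, chosen by name for their known part in moving salt, bicarbonate and water across the colon wall. All 10 had a probe set of their own among the 18820 genes measured. Expression came from scraped colon mucosa of 23 male mice, with 1 Affymetrix array per mouse, in groups of 6 KO heme, 6 KO control, 6 WT heme and 5 WT control mice. KO mice carried the disrupted PPARα gene as the strain 129S4/SvJae-Pparatm1Gonz/J and their WT counterparts were 129S1/SvImJ, so that genotype and substrain cannot be told apart. Mice were 7 to 9 weeks old when the diets began, and every group ate a Westernized food with 40 energy% fat and 30 µmol calcium per g for 14 days, to which the heme diets added 0.5 µmol heme per g. The disruption was present in every tissue, and the scrapings pooled proximal and distal colon of a mouse without its middle part, so that a difference in regional makeup cannot be told apart from a difference in expression. The study left out an array of a further WT control mouse for its quality. The linear signal of Ppara lay between 163 and 238 in KO heme mice and between 240.0 and 378 in KO control mice, against 344 to 475 in WT heme mice and 444 to 560.2 in WT control mice, so that KO mice lay below WT mice on each diet. Where its probes lie against the disrupted stretch was not known here, and probes outside it would not check the genotype.

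The surface cells of the colon take up salt and water from the gut contents. Sodium enters through the exchanger NHE3, which swaps it for protons, and through the channel ENaC, while chloride enters in exchange for bicarbonate through SLC26A3. Carbonic anhydrases inside the cell and on its outer membrane supply the protons and bicarbonate that these exchangers use, and water follows the salt, in part through water channels. Secretion runs the other way, where the cotransporter NKCC1 loads chloride into the cell from the blood side and the channel CFTR lets it out into the lumen. Loss of SLC26A3 in humans causes a congenital chloride diarrhoea, and loss of CFTR causes cystic fibrosis.

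Heme feeding moved 3 of the 10 genes, and the same 3 in both genotypes. The water channel gene Aqp8 was 2.19-fold higher in KO heme than in KO control mice and 2.17-fold higher in WT heme than in WT control mice. Slc9a3, which encodes NHE3, was 1.59-fold higher on heme in KO mice and 1.61-fold higher in WT mice. Slc12a2, which encodes NKCC1, was 1.40-fold lower on heme in KO mice and 1.37-fold lower in WT mice. A gene was called when limma's test gave an adjusted p (Benjamini-Hochberg over 18820 genes) under 0.01 and its mean linear signal was above 20 in a group compared. In KO mice 2 of 10 genes were thus called higher, against 9.23% of all genes, and 1 of 10 was called lower, against 9.2% of all genes. In WT mice the counts were again 2 and 1 of 10, against 9.6% and 8.29% of all genes. Of the 18820 genes, 14391 had a mean signal above 20 in any group, as all 10 genes had. The shares over all genes thus include genes too dim for a call. Over all genes, 6.69% were called higher in both genotypes and 5.44% lower in both. The median log2 fold change of the 10 genes was -0.0052 in KO mice and -0.020 in WT mice, beside -0.0082 and -0.0096 over all genes. The medians of the list and of all genes lay close together. Signals of other cell types moved with diet and were entered as covariates in turn, the mean signal of smooth muscle markers and, added once the data had been seen, that of goblet cell markers. With the goblet signal 1 of the 10 genes, Aqp8, kept its call in KO mice, and with the muscle signal Slc9a3 lost its call in WT mice. The goblet signal did not overlap between diets in either genotype, nor the muscle signal in WT mice. Such a covariate takes up part of the diet difference itself and makes its estimate less precise. A lost call thus does not show that these cells account for it. These are bulk samples, in which fewer cells of a type and less RNA per cell cannot be told apart.

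**Figure D1:**
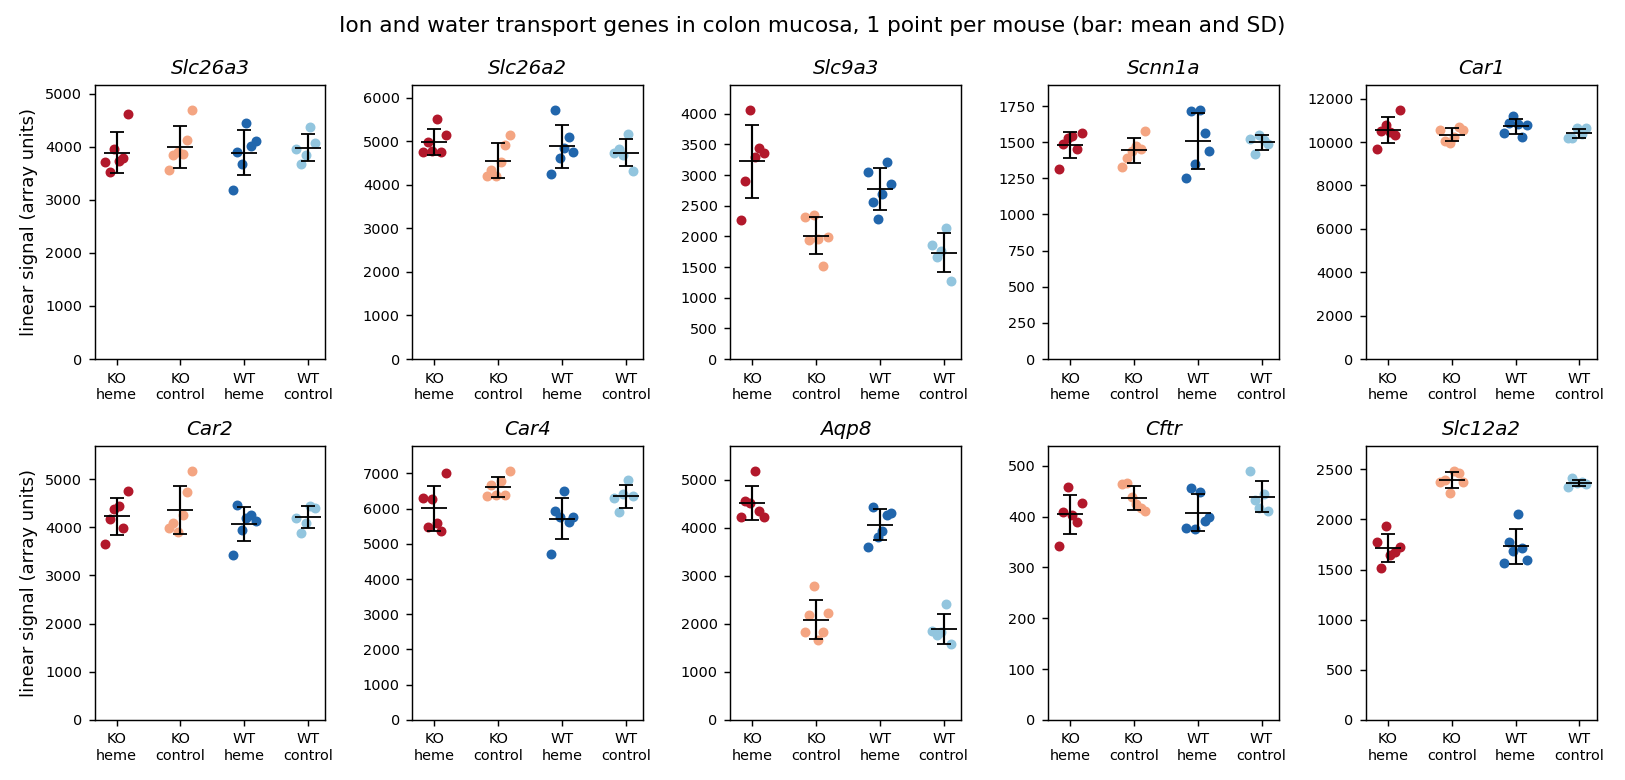
Linear array signal of the 10 genes (vertical axis from 0, array units, a scale per gene) in every mouse, by group on the horizontal axis in the order KO heme, KO control, WT heme and WT control. Bars give the mean and SD (n = 6, 6, 6 and 5). Aqp8 and Slc9a3 stand higher and Slc12a2 lower in the heme groups of both genotypes, while the other 7 genes lie at similar levels in all 4 groups.

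To show the sequence at a start of the genes that the results turn on, the 250 bases before the start given in a RefSeq promoter table were taken for the 5 genes listed there (GRCm38.p6, a C57BL/6J assembly, so that bases of the 129 strains can differ). Printed are Aqp8 and Slc9a3, which rose on heme, and Slc26a3, the chloride exchanger gene that was not called. All lie on the plus strand, Aqp8 at chr7:123462044-123462293, Slc9a3 at chr13:74121163-74121412 and Slc26a3 at chr12:31437969-31438218. Capitals mark matches, on either strand, to 6 motifs that were searched: AGGTCA (the repeat unit of nuclear receptor sites), DR1 (a pair of such units with 1 base between them, the kind of site PPARα binds), TGACNNNGC (the core of the site of NRF2), TTTATG (bound by CDX factors of the gut), GGGCGG (the GC box) and TATAAA (the TATA box). A DR1 match also counts as a match to AGGTCA.
Aqp8: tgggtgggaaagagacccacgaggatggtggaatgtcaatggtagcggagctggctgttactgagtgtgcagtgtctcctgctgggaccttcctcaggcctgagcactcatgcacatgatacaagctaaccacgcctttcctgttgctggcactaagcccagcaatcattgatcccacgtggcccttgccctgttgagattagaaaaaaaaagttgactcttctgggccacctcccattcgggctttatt
Slc9a3: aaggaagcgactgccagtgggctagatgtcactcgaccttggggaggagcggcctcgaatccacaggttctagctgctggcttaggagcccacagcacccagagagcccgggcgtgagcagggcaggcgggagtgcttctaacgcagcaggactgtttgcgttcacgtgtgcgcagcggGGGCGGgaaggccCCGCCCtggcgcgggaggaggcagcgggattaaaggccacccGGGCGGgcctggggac
Slc26a3: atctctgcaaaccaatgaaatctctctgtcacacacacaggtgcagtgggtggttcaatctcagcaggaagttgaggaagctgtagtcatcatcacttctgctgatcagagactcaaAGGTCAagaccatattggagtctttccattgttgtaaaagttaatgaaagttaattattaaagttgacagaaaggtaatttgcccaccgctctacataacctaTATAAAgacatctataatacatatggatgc
The Aqp8 window held no match to any of the 6 motifs. The Slc9a3 window held 3 GC boxes and no other match, and the Slc26a3 window held an AGGTCA at 133 to 128 bases before the start and a TATAAA at 30 to 25 bases before it. Of 32851 RefSeq windows of this length, 14.02% held AGGTCA, 0.03% DR1, 10.16% TGACNNNGC, 10.76% TTTATG, 32.74% GGGCGG and 12.37% TATAAA. GC content also differed, at 52.4% for Aqp8, 67.6% for Slc9a3 and 38.8% for Slc26a3, beside a median of 52.4% over all windows. None of the 6 motifs was found in the windows of both genes that rose. The windows of Slc9a3 and Slc26a3 precede an internal start, 35.2 kb and 5.1 kb inside the gene as the RefSeq gene table spans it, whereas that of Aqp8 precedes the gene itself. A match is a run of letters and not a proven site, and no match says only that these letters are not in this window. The remaining listed windows, of Car4 and Cftr, held no match and 6 GC boxes. Car1, Car2, Scnn1a, Slc26a2 and Slc12a2 are named only.

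AQP8 is a water channel of the surface epithelium of the colon. The linear signal of Aqp8 was 4219 at the lowest, 4438 at the median and 5192 at the highest in KO heme mice, against 1661, 2004 and 2783 in KO control mice. In WT heme mice it was 3605, 4103 and 4436 by the same measures, and in WT control mice the 5 values were 1578, 1775, 1822, 1842 and 2416. Every heme-fed mouse lay above every control mouse of its genotype, and also above every control mouse of the other genotype. Separation upward from the controls of the same genotype was found for 7.3% of all genes in KO mice and 8.21% in WT mice. The share of genes separated from the controls of both genotypes was not counted. Heme feeding gave a log2 fold change of 1.13 in KO mice (SE 0.105, 95% interval 0.92 to 1.35, limma adjusted p = 5.31e-08) and 1.12 in WT mice (SE 0.110, 0.89 to 1.35, adjusted p = 1.67e-07). It exceeded the log2 fold change of 99.5% of all genes in KO mice and of 99.6% in WT mice. The spread between mice was narrower on heme, where the SD was 8.0% of the mean in KO mice and 8.1% in WT mice, than on the control diet, where it was 19.5% in KO and 16.6% in WT mice. That difference of spread was not tested.

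NHE3, the product of Slc9a3, takes up sodium at the surface in exchange for protons. Its gene had signals of 2269 at the lowest, 3325 at the median and 4064 at the highest in KO heme mice, against 1522, 1976 and 2346 in KO control mice. The groups overlapped here, because the lowest KO heme mouse lay below the 2 highest KO control mice, at 2317 and 2346. WT heme mice had 2276, 2776 and 3208, and the 5 WT control mice had 1268, 1658, 1756, 1864 and 2130, with no overlap. Within WT mice, such separation upward was found for 8.21% of all genes. The log2 fold change was 0.67 in KO mice (SE 0.131, 95% interval 0.40 to 0.94, limma adjusted p = 4.55e-04) and 0.69 in WT mice (SE 0.138, 0.40 to 0.97, adjusted p = 6.04e-04). These fold changes exceeded those of 98.4% of all genes in KO mice and 98.3% in WT mice. Slc9a3 was also among the most variable of the 10 genes within groups, with an SD of 12.1% to 18.5% of the mean. Smooth muscle markers were lower on heme as well, by a median log2 of -0.54 over 12 markers in KO mice (1 called lower) and -1.19 in WT mice (10 called lower), and the part of muscle in the Slc9a3 values was tested only as a covariate. With the muscle signal as a covariate the log2 fold change of Slc9a3 in WT mice was 0.60 and its call was lost (adjusted p = 0.0391). With the goblet signal the log2 fold change in KO mice was larger, at 0.96, and the call was lost (adjusted p = 0.0224).

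The uptake channel ENaC was represented by Scnn1a, the gene of its alpha subunit. Its signals lay between 1315 and 1564 in KO heme mice, 1328 and 1579 in KO control mice, 1255 and 1724 in WT heme mice and 1419 and 1548 in WT control mice. The WT heme mice enclosed the whole range of the other groups. The log2 difference on heme was 0.04 in KO mice (95% interval -0.10 to 0.18, limma adjusted p = 0.747) and -0.00049 in WT mice (-0.15 to 0.15, adjusted p = 0.997). Of the 2 sodium genes on the list, a call was thus made for the exchanger gene and none for the channel subunit.

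SLC26A3 exchanges chloride of the lumen for bicarbonate, and SLC26A2 is a relative that carries sulfate. Slc26a3 had signals of 3530 to 4616 in KO heme mice, 3556 to 4694 in KO control mice, 3180 to 4444 in WT heme mice and 3678 to 4365 in WT control mice. All 4 ranges overlapped broadly, and the log2 difference on heme was -0.04 in KO mice (95% interval -0.20 to 0.12, limma adjusted p = 0.773) and -0.04 in WT mice (-0.21 to 0.13, adjusted p = 0.788). Slc26a2 had signals of 4751 to 5517 in KO heme mice, 4193 to 5149 in KO control mice, 4257 to 5718 in WT heme mice and 4312 to 5161 in WT control mice. In KO mice 5 of 6 heme-fed signals lay within the range of the controls, and the log2 difference was 0.13 (95% interval -0.0062 to 0.27, adjusted p = 0.152). In WT mice it was 0.04 (-0.11 to 0.18, adjusted p = 0.747).

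Carbonic anhydrases turn carbon dioxide and water into bicarbonate and protons, CAR1 and CAR2 within the cell and CAR4 anchored on its surface. Car1 had signals of 9666 to 11484 in KO heme mice, 9969 to 10675 in KO control mice, 10253 to 11203 in WT heme mice and 10182 to 10631 in WT control mice. Its SD was 5.7% of the mean in KO heme mice, 2.8% in KO control mice, 3.2% in WT heme mice and 2.1% in WT control mice. The probe set of Car1 ranked 17 by brightness among 35556 on the array, and whether its signal was compressed at that level was not tested. Its log2 difference on heme was 0.03 in KO mice (95% interval -0.05 to 0.11, limma adjusted p = 0.668) and 0.04 in WT mice (-0.04 to 0.13, adjusted p = 0.492). Car2 had signals of 3652 to 4758 in KO heme mice, 3898 to 5178 in KO control mice, 3430 to 4464 in WT heme mice and 3886 to 4439 in WT control mice. Its log2 difference was -0.04 in KO mice (-0.19 to 0.12, adjusted p = 0.757) and -0.05 in WT mice (-0.21 to 0.11, adjusted p = 0.701). Car4 came closest to a call among the carbonic anhydrases. It had signals of 5363 to 7009 in KO heme mice, 6369 to 7081 in KO control mice, 4724 to 6493 in WT heme mice and 5894 to 6814 in WT control mice. The heme groups reached lower and overlapped the controls at their upper end. The log2 difference of Car4 was -0.14 in KO mice (95% interval -0.29 to -0.0030, limma adjusted p = 0.123) and -0.16 in WT mice (-0.31 to -0.0090, adjusted p = 0.110). These intervals, which are not adjusted for the number of genes, just excluded 0, and neither difference passed.

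On the secretory side, NKCC1 loads chloride into the cell. The signal of Slc12a2 was 1519 at the lowest, 1699 at the median and 1936 at the highest in KO heme mice, against 2268, 2382 and 2487 in KO control mice. WT heme mice had 1562, 1696 and 2056, and the 5 WT control mice lay close together at 2319, 2350, 2362, 2374 and 2412. Every heme-fed mouse lay below every control mouse of either genotype, a separation downward found within a genotype for 6.62% of all genes in KO mice and 6.91% in WT mice. The log2 fold change was -0.49 in KO mice (SE 0.0585, 95% interval -0.61 to -0.37, limma adjusted p = 2.34e-06) and -0.46 in WT mice (SE 0.0613, -0.58 to -0.33, adjusted p = 9.65e-06), which is a drop of 28.6% in KO mice and 27.1% in WT mice. With the goblet signal as a covariate the log2 fold change of Slc12a2 was -0.40 in KO mice and its call there was lost (adjusted p = 0.0375). Only 3.50% of all genes had a lower log2 fold change in KO mice and 4.47% in WT mice. The spread of Slc12a2 was wider on heme, with an SD of 8.1% of the mean in KO and 10.3% in WT mice, than on the control diet, with 3.3% in KO and 1.4% in WT mice. Aqp8 had the opposite pattern, and the difference of spread was not tested for either gene.

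CFTR is the chloride channel of the luminal side. Cftr had signals of 342 to 458 in KO heme mice, 411 to 466.4 in KO control mice, 375 to 457 in WT heme mice and 412 to 491 in WT control mice. Its heme groups lay lower on average and overlapped the controls in both genotypes. The log2 difference was -0.12 in KO mice (95% interval -0.25 to 0.02, limma adjusted p = 0.213) and -0.11 in WT mice (-0.25 to 0.03, adjusted p = 0.269). Of the 2 genes of chloride secretion on the list, Slc12a2 was called and Cftr was not. For the 7 genes without a call, no 95% interval of the heme effect reached a fold of more than 1.22 in KO mice or 1.24 in WT mice, so that larger changes lay outside the intervals.

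**Figure D2:**
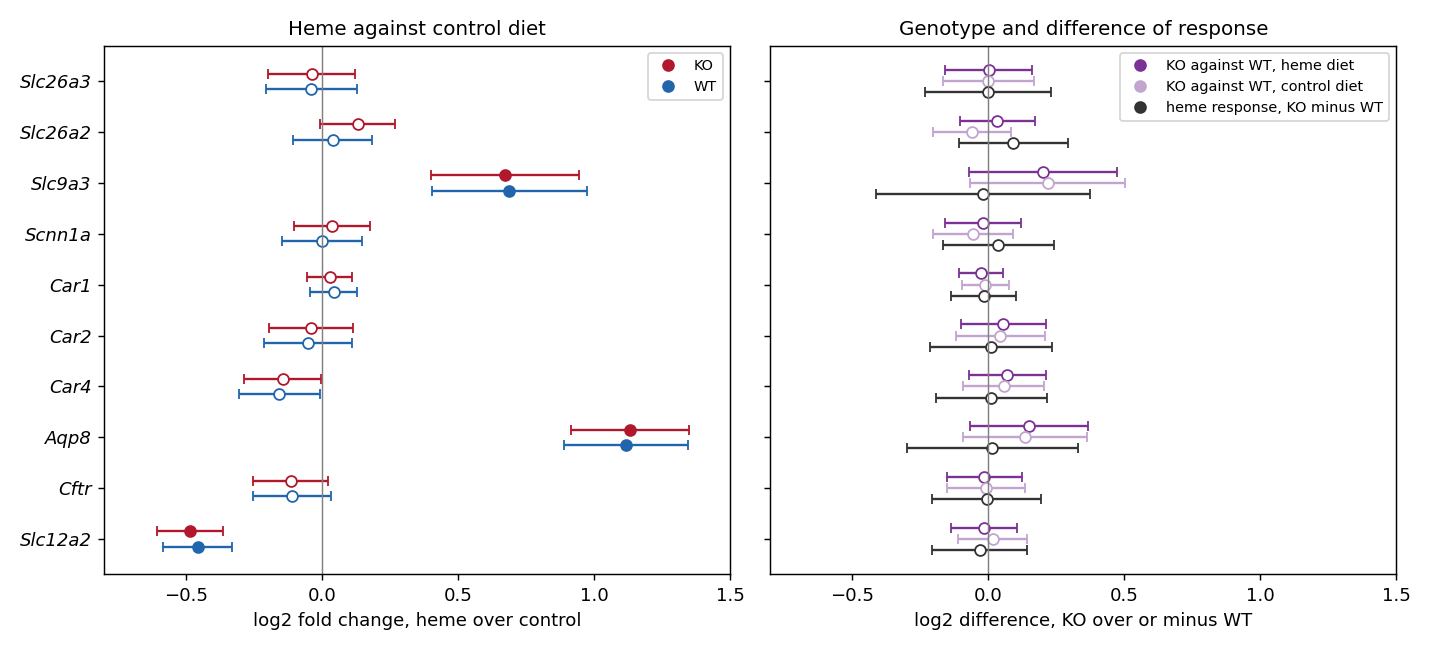
Log2 differences of the 10 genes with 95% intervals (horizontal axes), with heme over control diet in KO (red) and WT mice (blue) on the left. On the right are KO over WT mice on the heme diet (dark purple), KO over WT mice on the control diet (light purple), and the heme response in KO minus that in WT mice (black). Filled points were called, which holds for Aqp8, Slc9a3 and Slc12a2 on the left and for no gene on the right.

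Genotype made no called difference for any of the 10 genes. KO was compared with WT on the heme diet and on the control diet, and the heme response of KO mice was compared with that of WT mice by an interaction term. Of all genes, 0.234% were called between KO and WT on the heme diet, 0.0531% on the control diet and 0.0106% in the interaction, and limma called 0 of the 10 genes in each. At an unadjusted p under 0.05 the counts were again 0 of 10 in each. The largest difference on the heme diet was that of Slc9a3, higher by 0.20 on the log2 scale in KO mice (95% interval -0.07 to 0.47, limma adjusted p = 0.575), followed by Aqp8, higher by 0.15 (-0.06 to 0.37, adjusted p = 0.607). On the control diet these genes were again ahead, with 0.22 for Slc9a3 (-0.07 to 0.50, adjusted p = 0.948) and 0.14 for Aqp8 (-0.09 to 0.36, adjusted p = 0.963). The heme response of KO minus that of WT mice was 0.02 for Aqp8 (-0.30 to 0.33), -0.02 for Slc9a3 (-0.41 to 0.38) and -0.03 for Slc12a2 (-0.21 to 0.14). Over the 10 genes it ranged from -0.03 to 0.09, and no interval of it reached a fold of more than 1.33. These intervals leave room for a difference of moderate size and do not show that the genotypes respond alike. Smooth muscle markers had a median log2 difference over 12 markers of -0.61 in KO against WT mice on the control diet, -0.08 on the heme diet and 0.52 in the interaction. Limma called 0 of the 12 in each, and 10 of 12 on the control diet had an unadjusted p under 0.05, against 0 on the heme diet and 2 in the interaction. The part of muscle in the genotype values was tested only as a covariate, under which 0 of the 10 genes was called.

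The order of the 4 group means followed from these results. For Aqp8 and Slc9a3 it was KO heme, WT heme, KO control and WT control from the top. Only the middle step, WT heme against KO control, passed limma's threshold (difference 0.98, adjusted p = 3.67e-07 for Aqp8, and 0.47, adjusted p = 0.00865 for Slc9a3). For Slc12a2 the order was KO control, WT control, WT heme and KO heme, with a step of 0.46 between WT control and WT heme (adjusted p = 9.65e-06) and no other. In the other 7 genes no pair of neighbouring groups differed beyond the threshold.

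Within groups, the genes did not vary as a single block. After the mean of its group was subtracted from each mouse, Pearson correlations over the 23 mice were 0.82 between Slc26a3 and Car4, 0.80 between Slc26a3 and Car2, 0.77 between Scnn1a and Car2 and 0.75 between Slc26a2 and Car2. Among these 5 genes, picked after the values were seen, the 10 pairs had a median r of 0.70 (0.35 to 0.82), whereas over all 45 pairs of the 10 genes it was 0.32. Against these picked genes, Slc9a3 and Aqp8 had a median r of 0.13 over the 10 pairs (-0.06 to 0.36). They reached 0.46 with each other, and Slc9a3 reached 0.51 with Cftr. The points are arrays, each normalised as a whole and each a different mixture of cells, and the correlations are a description. Several mice marked the ends for many genes. WT heme mouse 1 had the lowest signal of its group for 7 of the 10 genes. These were Slc26a3, Slc26a2, Scnn1a, Car2, Car4, Aqp8 and Slc12a2, so that Aqp8 shared the low end there. KO heme mouse 6 had the highest signal of its group for Slc26a3, Scnn1a, Car1, Car2 and Car4, and KO control mouse 6 for Slc26a3, Slc26a2, Scnn1a, Car2 and Car4. In other mice both Slc9a3 and Aqp8 shared the end with some of the picked genes. KO heme mouse 1 was lowest for Slc9a3, Aqp8, Scnn1a, Car1, Car2 and Cftr, and WT control mouse 4 was highest for Slc9a3, Aqp8, Slc26a3, Slc26a2, Car2 and Car4.

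**Figure D3:**
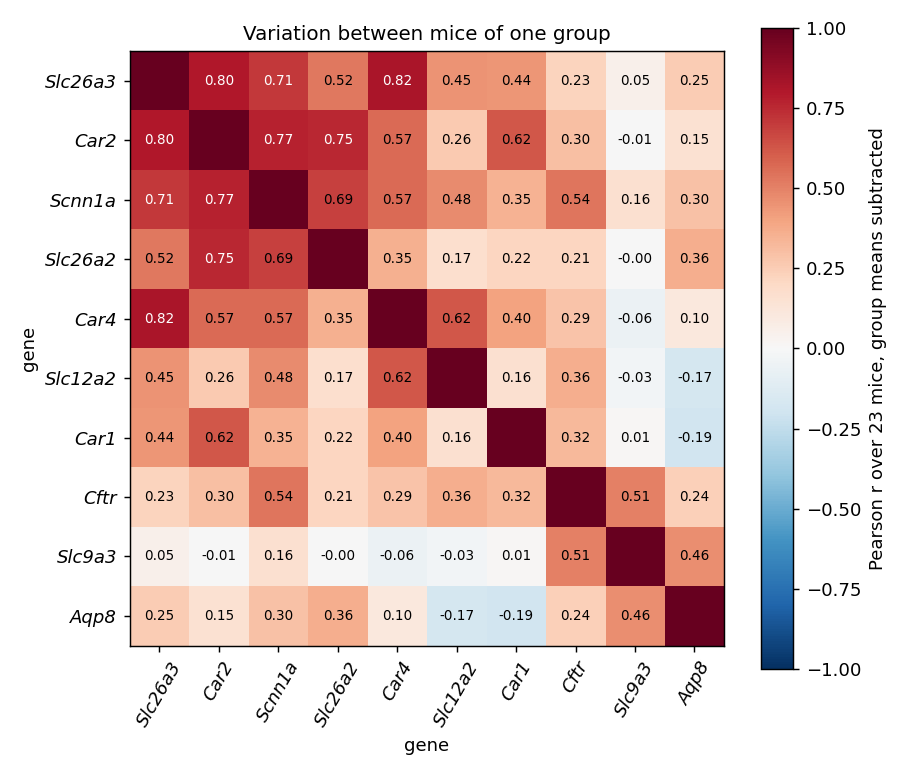
Pearson correlation of log2 signal between the 10 genes (both axes) over 23 mice after group means were subtracted (colour from -1 in blue to 1 in red, with each value printed). Slc26a3, Car2, Scnn1a, Slc26a2 and Car4 form the red corner with a median r of 0.70, and Slc9a3 and Aqp8 are pale against them, with a median r of 0.13.

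Genes of other cells were set beside these values. The markers of epithelium were present in all groups with a mean log2 signal of 11.3 in each of the 4, but single markers moved both ways. Of 10, limma called 2 higher (Vil1 and Krt19) and 2 lower (Epcam and Cdh1) in KO mice, and 1 higher (Vil1) and 2 lower (Epcam and Cdh1) in WT mice, with log2 fold changes between -0.24 and 0.32 among these. Enteroendocrine markers moved further. Of 6, 1 was called higher and 3 lower in KO mice and 0 higher and 2 lower in WT mice, with Chga at -1.49 in KO and -1.44 in WT mice and Chgb at -1.02 in KO and -1.03 in WT mice. Markers of dividing cells were higher on heme, with 7 of 7 called in each genotype and a median log2 fold change of 0.74 in KO and 0.84 in WT mice. Goblet cell markers were lower, with 4 of 7 called in KO mice (median -0.32) and 2 of 7 in WT mice (median -0.20), and their mean log2 signal was 11.7 to 11.96 in KO heme mice, against 12.1 to 12.2 in KO control mice. It was 11.8 to 11.99 in WT heme mice, against 12.02 to 12.2 in WT control mice, so that the goblet signal did not overlap between diets in either genotype. Cftr followed the goblet signal within groups (r = 0.83 over 23 mice), and Car2 ran against the signal of dividing cells (r = -0.68). These were the highest and lowest r among all pairs of a gene and a marker signal, picked after the values were seen. With dividing cells r was below 0 for all genes but Slc9a3 (0.12) and Aqp8 (0.18), and was -0.61 for Scnn1a. Car1 had an r of -0.66 with the signal of lymphocytes and macrophages. The part of the dividing and enteroendocrine cells in these values was not tested. With the goblet signal as a covariate Aqp8 kept its call in both genotypes (log2 fold change 1.16 in KO and 1.14 in WT mice).

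Genes outside the list with the most similar pattern were sought for each gene by Pearson correlation of log2 signal over the 23 arrays. For Aqp8 these were Sgpl1 (r = 0.97), Tm6sf2 (0.96) and Slc25a20 (0.96), and for Slc12a2 they were Nav2 (0.97), Sdc4 (0.97) and Adgrg1 (0.96). For Slc9a3 they were Lasp1 (0.90), Sdcbp2 (0.89) and Sema4b (0.89). After group means were subtracted the highest r was 0.77 for Aqp8 (1700084E18Rik), 0.72 for Slc9a3 (Atp5j2) and 0.83 for Slc12a2 (Eif4b). For genes without a heme call the closest partner had an r between 0.76 for Slc26a2 (Cyp2c68) and 0.91 for Car4 (Spink1). Kyat1 led for Slc26a3 (0.88) and was also among the 3 closest genes of Scnn1a (0.81) and Car2 (0.78).

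The other genes of colon transport were examined through a list of 67 genes in 9 groups, of which 61 were measured. In KO mice 10 were called higher (16.4%) and 15 lower (24.6%), and in WT mice 8 were called higher (13.1%) and 14 lower (22.95%). Over all genes the shares were 9.23% higher and 9.2% lower in KO mice, and 9.6% higher and 8.29% lower in WT mice. The share called higher in WT mice thus lay near that of all genes. All genes include those too dim for a call, since 14391 had a mean signal above 20 in any group. The list was chosen with earlier results of these data known, and its shares were not tested against those of all genes. Lower calls outnumbered the higher ones. The median log2 fold change was -0.03 in KO mice and -0.04 in WT mice. In both genotypes 4 genes were called higher and 12 lower, and 13 of these 16 kept their call in both genotypes when any single array was left out. By that measure 5 higher and 13 lower calls held in KO mice and 4 higher and 14 lower calls in WT mice. Fewer held with marker signals as covariates. With the goblet signal 21 of 25 calls in KO mice and 16 of 22 in WT mice were lost. Of the 16 genes called in both genotypes, Aqp3 and Slc13a1 kept both calls. That signal did not overlap between diets, so that these losses do not show a part of goblet cells. Among calls lost in KO mice the log2 fold change grew for some genes (Aqp4 from 0.82 to 1.16) and shrank for others (Car8 from -0.92 to -0.39). Clca1, among the lost, is itself a marker in the goblet signal. With the smooth muscle signal 6 of 25 calls in KO mice and 12 of 22 in WT mice were lost, and Aqp1, Aqp3, Car5b, Car8, Clca1, Kcnq1, Nr3c2, Slc13a1, Slc4a4 and Slc5a8 kept both calls. Between genotypes and in the interaction limma called 0 of 61. Calls made in KO or WT mice alone are therefore not shown to differ between them.

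Among bicarbonate carriers, 1 of 7 measured genes was called, and it fell in both genotypes. Slc4a4, a sodium bicarbonate cotransporter of the blood side, had signals of 712 to 1151 in KO heme mice, against 1609 to 2242 in KO control mice. It had 747 to 1121 in WT heme mice, against 2029 to 2411 in WT control mice. No heme-fed mouse reached a control mouse, and the log2 fold change was -1.01 in KO mice (limma adjusted p = 1.89e-07) and -1.32 in WT mice (adjusted p = 6.67e-09). Separation downward within a genotype was found for 6.62% of all genes in KO mice and 6.91% in WT mice. Slc13a1, which takes up sulfate with sodium, fell furthest of the 61. Its signal was 85.1 to 231 in KO heme mice, against 612 to 1022 in KO control mice, and 108 to 230 in WT heme mice, against 507 to 897 in WT control mice, with log2 fold changes of -2.66 (adjusted p = 1.90e-08) in KO and -2.33 (adjusted p = 3.71e-07) in WT mice. Slc5a8, which takes up short-chain fatty acids with sodium, fell by 0.64 on the log2 scale in KO mice and by 1.01 in WT mice. The KO call of Slc5a8 was lost without KO heme mouse 5 (-0.57, adjusted p = 0.0104). Slc16a1, a proton-coupled carrier of short acids, rose by 0.30 in KO mice, and its log2 difference in WT mice was 0.22 without a call.

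Water channel genes other than Aqp8 went both ways. In KO mice 2 of 7 rose and 1 fell, and the counts were the same in WT mice. Aqp3, a channel for water and glycerol, had signals of 30.3 to 47.1 in KO heme mice, against 19.2 to 27.8 in KO control mice, and 38.4 to 56.9 in WT heme mice, against 25.2 to 29.3 in WT control mice. These are near the minimum of 20 asked of a call, and the log2 fold changes were 0.73 in KO mice (limma adjusted p = 3.28e-05) and 0.81 in WT mice (adjusted p = 1.71e-05). Aqp4, a channel of the blood side, rose by 0.82 in KO mice (adjusted p = 2.71e-04) and differed by 0.49 in WT mice without a call (adjusted p = 0.0246). Aqp1, a water channel known from the endothelium of blood vessels, fell by 0.61 in KO mice (adjusted p = 2.67e-05) and by 0.72 in WT mice (adjusted p = 7.99e-06). Of 6 endothelial markers limma called 0 in either genotype, with medians of -0.19 in KO and -0.19 in WT mice, and 2 of them in KO mice and 0 in WT mice had an unadjusted p under 0.05.

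Of 8 other carbonic anhydrase genes, 3 rose and 2 fell in KO mice, and 3 rose and 1 fell in WT mice. Car8, whose product lacks the enzyme activity of its family, had signals of 332 to 643 in KO heme mice, against 749 to 998 in KO control mice, and 346 to 524 in WT heme mice, against 823 to 1029 in WT control mice. Its log2 fold change was -0.92 in KO mice (limma adjusted p = 1.71e-05) and -0.99 in WT mice (adjusted p = 1.27e-05). Car13, a cytosolic enzyme, rose by 0.48 in KO mice (adjusted p = 1.44e-05) and by 0.39 in WT mice (adjusted p = 2.28e-04). The family was thus split, and its members Car1, Car2 and Car4 lay between these genes.

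Genes of potassium channels and pumps were called mostly lower, whereas those of chloride channels were called in both directions in KO mice. KCNQ1 and KCNE3 form a potassium channel of the blood side that serves chloride secretion. Kcnq1 fell by 0.41 in KO mice (limma adjusted p = 4.53e-04) and by 0.55 in WT mice (adjusted p = 3.80e-05), and Kcne3 fell by 0.48 in KO mice (adjusted p = 4.67e-05) and by 0.38 in WT mice (adjusted p = 0.0010). Slc12a7, a potassium chloride cotransporter, fell by 0.38 in KO and 0.31 in WT mice, and Ano1, a chloride channel opened by calcium, by 0.37 in KO and 0.46 in WT mice. Over 10 potassium channel and pump genes, 0 rose and 4 fell in KO mice, and 1 rose and 4 fell in WT mice. The gene that rose, Atp12a, encodes the proton potassium pump of the colon and had a log2 fold change of 0.81 in WT mice (adjusted p = 5.99e-04), beside 0.33 in KO mice without a call. Of 6 chloride channel genes and regulators, 2 rose and 2 fell in KO mice, and 0 rose and 2 fell in WT mice. Those that rose in KO mice were Clcn2, by 0.36, and Ano10, by 0.31 (adjusted p = 0.00255). In WT mice they differed by 0.28 and 0.23 without a call. Clca1, a secreted regulator that is also a goblet cell marker on the list above, fell by 0.63 in KO and by 0.55 in WT mice. Ptger4, a prostaglandin receptor that drives secretion, fell by 0.33 in KO and by 0.34 in WT mice, and it was the only one of 6 genes of guanylin and secretagogue signals called in both.

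Of 7 genes of ENaC subunits and aldosterone handling, 2 rose and 1 fell in KO mice, and 1 rose and 2 fell in WT mice. Their median log2 fold change was 0.29 in KO and 0.17 in WT mice. Sgk1 rose by 1.07 in KO mice (limma adjusted p = 0.00408) and differed by 0.81 in WT mice without a call. Hsd11b2 rose by 0.29 in KO mice and differed by 0.17 in WT mice without a call. The ENaC subunit gene Scnn1b rose by 0.67 in WT mice (adjusted p = 0.0045) and differed by 0.30 in KO mice without a call. Another subunit gene, Scnn1g, differed by 0.75 in WT mice (limma adjusted p = 0.0142) and by 0.34 in KO mice, without a call in either. Nr3c2, the aldosterone receptor, fell by 0.38 in KO mice (limma adjusted p = 8.02e-05) and by 0.32 in WT mice (adjusted p = 7.03e-04). Nedd4l, whose product removes ENaC from the membrane, fell by 0.29 in WT mice (adjusted p = 0.00116), and its log2 difference in KO mice was -0.12 without a call. Slc9a3r1, an adaptor that holds NHE3 at the membrane, rose by 0.30 in WT mice (adjusted p = 0.00170), and its log2 difference in KO mice was 0.11 without a call. In WT mice the calls of Nr3c2 (-0.29, adjusted p = 0.0104) and Nedd4l (-0.26, adjusted p = 0.0109) were lost when arrays were centred on their medians, and that of Slc9a3r1 when only the groups compared were fitted (0.30, adjusted p = 0.0111). All 3 calls were also lost with the goblet signal as a covariate, and those of Nedd4l and Slc9a3r1 with the muscle signal. No other gene of that group of 7 exchangers and adaptors was called in either genotype, Slc9a2, Slc9a4 and Slc9a8 among them. The log2 differences of these exchanger genes were below 0 in both genotypes. In KO mice they were -0.25 for Slc9a2 (adjusted p = 0.0113), -0.19 for Slc9a4 (adjusted p = 0.0794) and -0.23 for Slc9a8 (adjusted p = 0.0128). Calls of Sgk1, Hsd11b2, Car5b, Car9, Clcn2 and Kcnk5 in KO mice and of Scnn1b, Aqp7, Car5b and Car9 in WT mice were each lost when any of several single arrays was left out, although they stand in the counts of their groups.

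**Figure D4:**
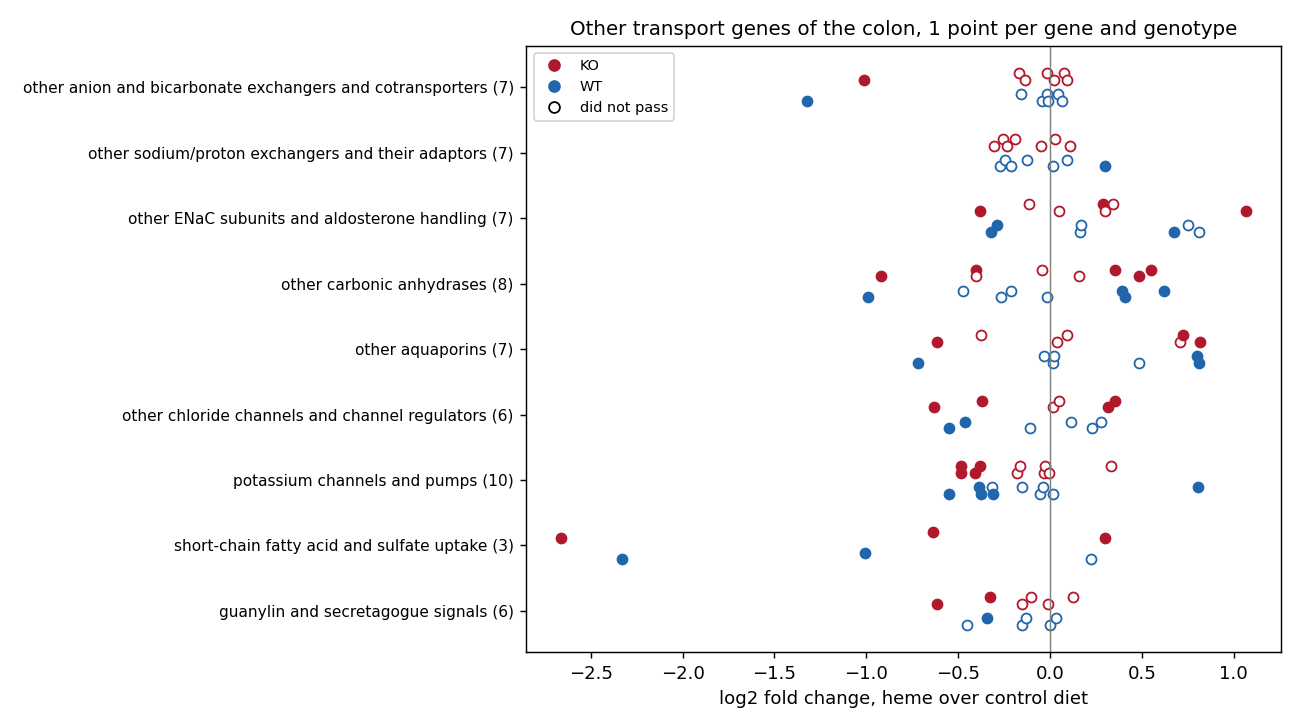
Log2 fold change on heme over control diet (horizontal axis) of 61 other transport genes in 9 groups (number of genes in brackets), with KO in red above WT in blue and open points for genes that did not pass. The points furthest left are Slc13a1 (-2.66 in KO and -2.33 in WT mice), followed by Slc4a4 (-1.01 in KO and -1.32 in WT mice). The sodium/proton exchangers and adaptors lie between -0.30 and 0.11 in KO and between -0.27 and 0.30 in WT mice.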

How the data were processed

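Colon mucosa RNA (100 ng per array) of 23 mice was hybridised to whole-transcript Affymetrix arrays. The authors deposited log2 values per probe set after Robust Multi-array Average (version not given in the sources used here), which normalises all arrays together, so that a change of total RNA per cell is not seen. Array signals have no read depth, so precision rests on how many arrays there are. The methods of the study name regrouped probe sets, whereas the identifiers here are Affymetrix transcript clusters, so that the probes behind a gene are not certain. No column was left unmatched to a sample.

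Gene names came from the annotation of the platform and were updated in a RefSeq table (GRCm38.p6, 21185 of 21218 probe sets with 1 symbol matched). The brightest probe set stood for each of 18820 genes. Linear signal is 2 to the power of the log2 value. Alternatives were filters, probe sets, thresholds, variance models, array weights, centring, linear values, marker signals as covariates, a replicate block and leaving out each array. The fit was tested on simulated data.

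A model with 4 group means was fitted in limma 3.58.1 (R 4.3.3), and its contrasts were the interaction, KO against WT within a diet, and heme against control within a genotype. Mice were housed singly, and shared litters are not stated. The p-values set a difference of group means against the spread between these mice, which limma estimates over all 4 groups and moderates across genes. The 10 genes and all lists were chosen with earlier results of these data known. Named were all 10 genes, the 3 most similar genes of a gene by Pearson correlation, and other transport genes called on heme. Scnn1g, Slc9a2, Slc9a4, Slc9a8 and Guca2b were named outside that rule, without a call on heme. Ppara and some markers of cell types were named as well. Some genes of the wider transport list were not analysed here. Figures were drawn with Python 3.11.15 and matplotlib 3.10.9.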

Additional observations from a re-analysis of the deposited data

Results flagged for a closer look

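Among the 40 combinations of a gene and a group, 1 stood out. Aqp8 in KO heme mouse 4, at a linear signal of 5192, lay far enough above the other mice of its group to pass Dixon's 95% criterion for 6 samples (gap over range 0.6254, against a critical value of 0.625). Chance marks about 1 in 20 groups. Without this mouse Aqp8 kept its call in KO mice. Of the 10 genes, limma called 0 for a difference between genotypes in the heme response, and 0 at an unadjusted p under 0.05.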

How the results depend on the processing

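Of 36 alternatives, none turned the direction of a called value of the 10 genes, and 3 calls were lost: Slc9a3 and Slc12a2 in KO mice with the goblet cell signal as a covariate and Slc9a3 in WT mice with that of smooth muscle. The number of the 10 genes called in KO mice was then 1 with the goblet signal, and the cause was not tested. Aqp8 kept its call in all 36, with a log2 fold change of 1.07 to 1.22 in KO and 1.06 to 1.21 in WT mice. In 131 cases a value without a call changed sign and stayed without a call. Leaving out single arrays kept all 3 calls in both genotypes, with Slc9a3 at 0.59 to 0.77 in KO and 0.58 to 0.77 in WT mice and Slc12a2 at -0.52 to -0.45 in KO and -0.51 to -0.43 in WT mice.

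Of the other transport genes, the goblet signal left 4 called in KO mice and 7 in WT mice, and the smooth muscle signal left 12 in WT mice, while leaving out single arrays gave 19 to 27 in KO and 19 to 23 in WT mice. Car5b in KO mice had -0.074 with the goblet signal (adjusted p = 0.920), a turned sign. Between KO and WT on the heme diet, 1 gene was called with array weights, with a variance trend and robust prior, at an adjusted p under 0.05, and with the smooth muscle or goblet signal, and 0 to 1 when single arrays were left out (1 without WT control mouse 2 or 5, KO control mouse 3 or KO heme mouse 1). At the threshold of 0.05 this gene was Guca2b, which encodes uroguanylin (log2 difference 0.35, limma adjusted p = 0.0110). In the main fit Guca2b was not called at 0.01. For the other settings the called gene was counted without its name. With the replicate number as a block (replicate block) the 10 genes gave 3 calls on heme in either genotype, and the other transport genes 27 in KO and 24 in WT mice. Same-numbered mice had a mean residual r of 0.0475, against -0.0093 for mice of other numbers, and 4 of 23 arrays correlated best with their own number. These values were not tested and do not settle whether numbers pair the mice.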
